A study of Mus musculus with 2 samples.

Results

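The miR-297, miR-466, miR-467 and miR-669 miRNAs form a large rodent family whose hairpins are built from simple repeats, with stretches of alternating U and G on one arm and of alternating A and C on the other. A hairpin is the folded precursor from which the enzyme Dicer cuts a 5p and a 3p arm, and either arm can become the mature miRNA that guides Argonaute to its target mRNAs. Most copies of the family lie in an intron of Sfmbt2, which encodes a Polycomb group protein and is expressed from the paternal copy in the mouse placenta, and the rest are scattered over other chromosomes. Members were taken by name, as every listed mature miRNA whose name begins with mmu-miR-297, mmu-miR-466, mmu-miR-467 or mmu-miR-669 followed by a letter or a hyphen. This gave 80 members among the 1982 listed names.

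The study asked whether the RNA cargo of circulating extracellular vesicles (EVs) differs after exercise. Wild Type C57BL/6 mice, 8 weeks old and fed normal chow, either stayed sedentary or were made used to a treadmill over 3 days and then ran for 60 min to exhaustion at speeds that rose from 10 to 24 m/min. Plasma of 20 mice per group, about 10 ml, was pooled, EVs were isolated from it by size exclusion chromatography, and their RNA gave 1 small RNA library from sedentary mice (sEVs) and 1 from exercised mice (eEVs), read over 50 nt. Both groups share genotype, strain, age and diet, and a pool of animals holds no measure of the spread between them. Reads on miRNAs numbered 2851 for sEVs, over 82 species, and 820 for eEVs, over 66 species, a depth ratio of 3.48. At these depths a count of 0 allows a true count of up to 3, or a share of 0.105% for sEVs and 0.366% for eEVs. No replicate exists for either group, and every interval, limit and p-value below covers counting error between these 2 libraries only, in reads that carry no molecular identifiers.

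Mature sequences of 8 members were matched by name in a table drawn from RefSeq (GRCm38.p6), and they are shown because their repeats bear on which locus a read can come from. They are written 5′ to 3′ with the seed, bases 2 to 8, in capitals. The first 3 belong to members with a count:
mmu-miR-466q: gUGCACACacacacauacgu
mmu-miR-466k: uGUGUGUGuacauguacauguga
mmu-miR-467g: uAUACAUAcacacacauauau
The next is the 3p arm of the hairpin whose 5p arm held most of the family's counts, and it had 0 counts itself:
mmu-miR-466i-3p: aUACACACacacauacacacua
The last 4 come, like those above, from hairpins outside Sfmbt2, and had 0 counts in both libraries:
mmu-miR-466j: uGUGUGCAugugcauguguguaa
mmu-miR-467f: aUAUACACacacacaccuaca
mmu-miR-467h: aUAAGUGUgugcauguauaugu
mmu-miR-669n: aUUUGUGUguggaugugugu
No seed is shared among these 8. Elsewhere in the table only that of mmu-miR-467h recurs, in mmu-miR-668-5p, which had 0 counts. The table holds no sequence for the family's other members, mmu-miR-466i-5p among them, so seeds shared with those were not examined. The longest stretch of 2 strictly alternating bases was 12 bases in mmu-miR-466q and mmu-miR-467f, 11 in mmu-miR-466i-3p, 9 in mmu-miR-466k and mmu-miR-467g, 8 in mmu-miR-669n and 7 in the other two.

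The family's counts sat almost wholly on mmu-miR-466i-5p in both libraries, and its share was higher in eEVs. The family held 167 counts in sEVs, or 5.86% of all miRNA counts (95% Wilson interval 5.05% to 6.78%), and 90 counts in eEVs, or 11.0% (9.02% to 13.3%). The share in eEVs over that in sEVs was 1.87 (exact 95% interval 1.43 to 2.44). Of the family's counts, mmu-miR-466i-5p took 97.0% in sEVs (93.2% to 98.7%) and 97.8% in eEVs (92.3% to 99.4%), so the split between this member and the others differed by less than the counting error. Expressed as an inverse Simpson index, the number of equally abundant members that would give the same concentration of counts, the spread was 1.06 members in sEVs and 1.05 in eEVs.

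At least 1 count was found on 5 of the 80 members, or 6.25%, against 5.89% of the 1902 listed names outside the family, so members were found about as often as other names. The 5 counted members were 3 of the 31 miR-466 names and 2 of the 13 miR-467 names. All 6 miR-297 names and all 30 miR-669 names had 0 counts in both libraries, as did the remaining 28 miR-466 and 11 miR-467 names, which makes 75 members in all. For each of these 75 a share of up to 0.105% in sEVs and 0.366% in eEVs is allowed. In sEVs 4 members had a count, or 5.00%, against 4.1% of the other names, and in eEVs 3, or 3.75%, against 3.31%, with 2 members counted in both. When the expected number in sEVs was computed at the depth of the eEV library it was 2.21.

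The sEV library gave 162 counts of mmu-miR-466i-5p and the eEV library 88, and it was the third most abundant species in each library. Its share was 5.68% in sEVs (95% Wilson interval 4.89% to 6.59%) and 10.7% in eEVs (8.79% to 13.0%), and the intervals do not overlap. At the sEV share, 46.6 counts would have been expected in the eEV library. The log2 fold change was 0.92 (exact 95% interval 0.53 to 1.30). Fisher's exact test, two-sided and run on each of the 117 detected species, gave an adjusted p of 5.3e-05 with Benjamini-Hochberg adjustment over all of them. By the same rule 18.8% of those species were called higher in eEVs and 4.27% lower, 23.1% in all, and mmu-miR-466i-5p was the 1 member called of 5 tested. Of the 17 species with more than 3 counts in each library, it had the fifth highest fold change, and their median log2 fold change was -0.17.

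The size of this difference depends on the scaling and its call on the error assumed. With edgeR's TMM factors the log2 fold change of mmu-miR-466i-5p was 1.09, with DESeq2's size factors 1.44, and relative to mmu-miR-23a-3p alone, the most abundant species, 0.95. For every 100 counts on mmu-miR-23a-3p there were 12.6 on mmu-miR-466i-5p in sEVs and 24.3 in eEVs. No member reached a 2-fold difference with total counts, a size reached upward by 16.4% and downward by 14.8% of the 61 species with more than 3 counts in a library. With TMM factors and with DESeq2's size factors mmu-miR-466i-5p passed it, but such factors shift the log2 fold change of every species by the same amount. The shares of all species past 2-fold are not given for those factors, so this does not set the member apart. When variation between libraries was assumed, edgeR's exact test gave an adjusted p of 0.00808 at a biological coefficient of variation of 0.1, 0.275 at 0.2 and 0.594 at 0.4. The true variation between pools of mice cannot be estimated from 1 library per group.

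**Figure D1:**
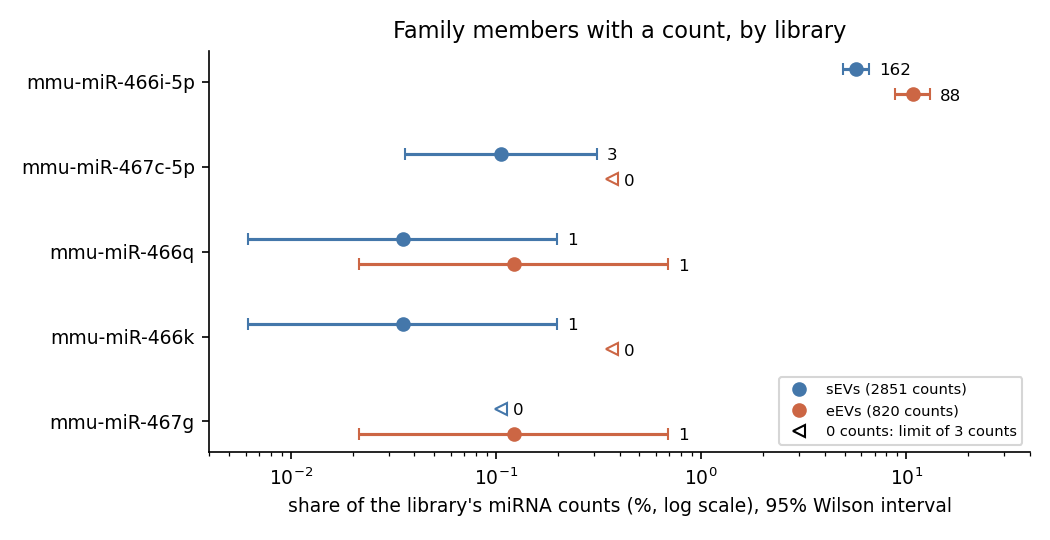
Share of each library's miRNA counts (%, log scale) on the 5 members with a count, with 95% Wilson intervals and the raw count beside each point. mmu-miR-466i-5p stands at 5.68% in sEVs and 10.7% in eEVs, while the other 4 members have 0 to 3 counts, and open triangles mark the limit of 3 counts where a library had 0.

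The other 79 members together had 5 counts in sEVs and 2 in eEVs, or 0.175% (95% Wilson interval 0.0749% to 0.410%) and 0.244% (0.0669% to 0.885%) of the libraries. Their pooled log2 fold change was 0.48, with an exact interval from -2.92 to 3.09 that includes large changes in either direction, so a difference in these members was not detectable at this depth. For mmu-miR-467c-5p there were 3 counts in the sEV library and 0 in the other. mmu-miR-466q had 1 count in each library, mmu-miR-466k had 1 in sEVs only and mmu-miR-467g had 1 in eEVs only. None of the 4 exceeds the limit of 3 counts in either library, so a fold change would not be interpretable. Their adjusted p in Fisher's exact test lay between 0.422, for mmu-miR-467g, and 1, for mmu-miR-467c-5p and mmu-miR-466k.

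By name, the counted arms were unequal for the hairpin of mmu-miR-466i. A name does not show the locus of a read, so these counts give no arm ratio for that hairpin itself. Its 3p arm, shown above, had 0 counts in sEVs and 0 in eEVs beside the 162 and 88 counts of the 5p arm. The 3p arm of mmu-miR-467c also had 0 counts in both libraries, against 3 counts in all on its 5p arm, too few to set the arms apart.

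**Figure D2:**
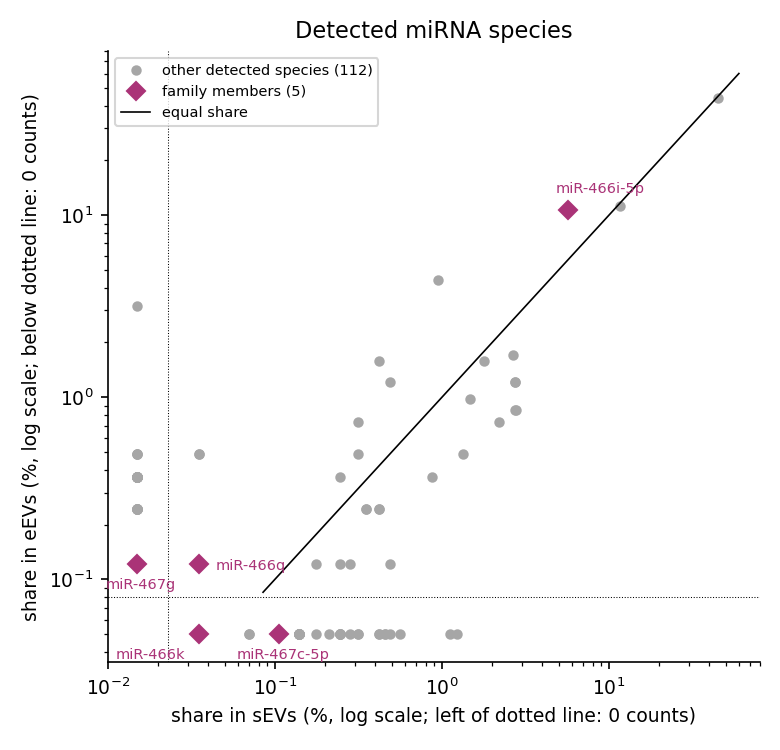
Share in eEVs against share in sEVs (%, log scales) for the 117 detected species, with the 5 family members as diamonds. Points beyond the dotted lines had 0 counts in that library and many lie on top of each other, and mmu-miR-466i-5p lies above the line of equal share.

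The loci were taken from the GENCODE M21 annotation of GRCm38, by the names of hairpin genes, since the deposited tables give no positions. The annotation holds 81 hairpins of the family. Sfmbt2 spans chr2:10370510-10595253, and 71 of the hairpins lie in its introns on the same strand, within 51.6 kb that begin 96.2 kb from the start of the gene. The cluster holds 29 of 30 miR-669, 23 of 28 miR-466, 14 of 17 miR-467 and 5 of 6 miR-297 hairpins. The remaining 10 are spread over 7 other chromosomes. By hairpin name, 64 members come only from inside Sfmbt2, 9 only from outside and 5 from both, and the 2 arms of mmu-miR-466a were not matched by name.

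By hairpin name, few counts were assigned to the Sfmbt2 cluster in either library. A name does not show the locus of a read, since hairpins inside and outside the gene share sequence. Of the 64 members found only inside the gene, 1 had a count, beside the 5.89% of names outside the family given above. It was mmu-miR-467c-5p, whose hairpin Mir467c lies at chr2:10473931-10474027. Its 3 counts made up 1.80% of the family's counts in sEVs (95% Wilson interval 0.613% to 5.15%), against 0 of 90 in eEVs, which allows up to 3.33%, so a difference was not detectable at this depth. Without mmu-miR-466i-5p the share in sEVs was 60.0%, which is 3 of 5 counts. As a share of the library the cluster-only members had 0.105% of the counts in sEVs (0.0358% to 0.309%) and 0 of 820 in eEVs, which allows up to 0.366%. The 5 members with hairpins in both places, mmu-miR-297a-5p and -3p and the 3 forms of mmu-miR-466f, had 0 counts.

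**Figure D3:**
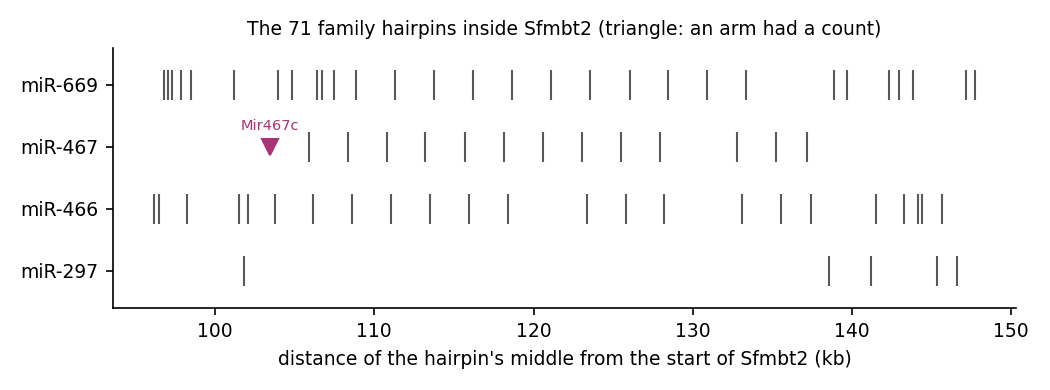
The 71 family hairpins inside Sfmbt2, by subfamily, along the distance from the start of the gene (kb). The triangle marks Mir467c, the 1 hairpin of the cluster with a count on an arm, and ticks mark the hairpins with 0 counts.

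The other 4 counted members come from 4 of the 10 hairpins outside Sfmbt2. They are 4 of the 9 members found only there, beside the 5.89% of names outside the family with a count. These 9 members held 164 counts in sEVs and 90 in eEVs, of which 162 and 88 were on mmu-miR-466i-5p. Mir466i lies at chr13:17747473-17747593 on the plus strand, within an intron of Cdk13, a kinase of transcription elongation, on the opposite strand. Mir466q lies at chr3:28419943-28420018 in an intron of the kinase gene Tnik on the same strand. Mir466k lies at chr3:85467377-85467498, in an intron of Gm37240 on the opposite strand. Mir467g lies on the minus strand at chr5:34732853-34732972, opposite an intron of Grk4, a G protein-coupled receptor kinase. The genome build behind the deposited counts is not given in the sources used here, so these positions are those of the annotation.

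The 4 counted hairpins outside Sfmbt2 were also the 4 of the 81 that share sequence with the most annotated genes outside the family. Sharing was counted as the same 18 bases in a row, on the same strand, in any transcript of a gene. Mir466i shared such stretches with 2750 genes, Mir466q with 2488, Mir466k with 2420 and Mir467g with 533. The next hairpin shared them with 473, and the median over the 81 was 27. For Mir467c, inside Sfmbt2, the number was 33. This order rests on the minimum of 1 count, since Mir466q, Mir466k and Mir467g had 1 or 2 counts in all. With 3 or more counts in a library, Mir466i and Mir467c alone would be called counted.

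Long runs of alternating T and G followed the same order only in part. A run of 20 or more bases of strictly alternating T and G was found in 3 of the 81 hairpins, Mir466q with 28 bases and Mir466i and Mir466k with 23 each, and an arm of each of these 3 had a count, which for Mir466q and Mir466k means 1 or 2 counts in all. The median longest run was 8 bases over the family, and Mir467g had 11. Such a run, searched on the transcript strand, is held by 3.70% of the family's hairpins, by 2.77% of all 2202 annotated miRNA genes and by 3.82% of the 55450 genes in the transcript file. In Mir466i the run spans bases 51 to 73 of the 121, and it ends 6 bases before the start of the 3p sequence shown above. The sequence of mmu-miR-466i-5p, the counted arm, was not in the RefSeq table, so its overlap with the run was not determined. In Mir466k it spans bases 6 to 28 and overlaps the first 9 bases of the mature sequence. In Mir466q it spans bases 1 to 28 and ends 17 bases before the mature sequence. The part of reads from other repeat transcripts in the counts of these members was not tested, since the reads themselves were not analysed.

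**Figure D4:**
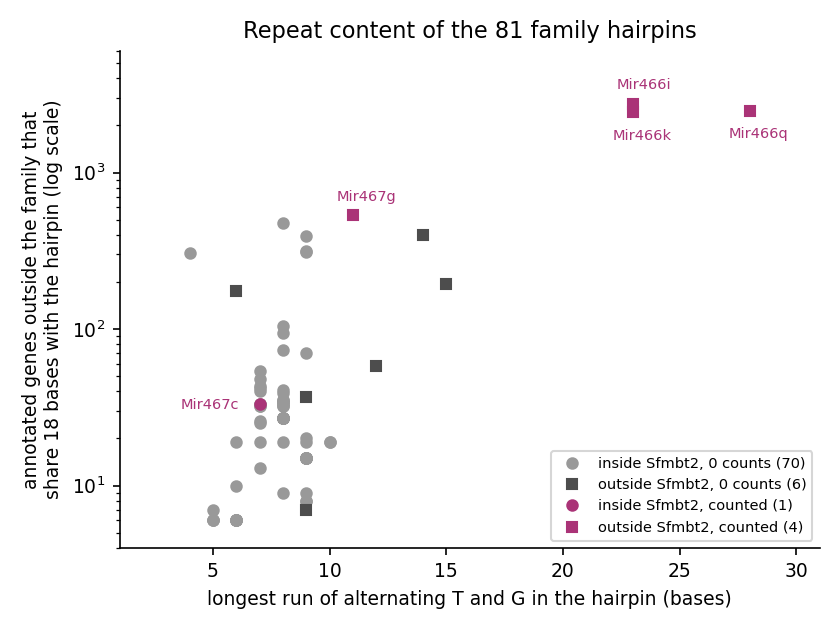
Number of annotated genes outside the family that share 18 bases with a hairpin (log scale) against the hairpin's longest run of alternating T and G (bases), for the 81 family hairpins. Mir466i, Mir466k and Mir466q lie alone at the upper right, with 2420 to 2750 genes, and Mir467c lies among the hairpins with 0 counts.

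Whole mature sequences could be compared for 3 of the 5 counted members, those with 1 or 2 counts each, and not for mmu-miR-466i-5p or mmu-miR-467c-5p, so the comparison does not cover most of the family's counts. The complete sequence of mmu-miR-466q, mmu-miR-466k and mmu-miR-466i-3p was each found in the transcripts of 1 gene, its own hairpin, and that of mmu-miR-467g in 3 genes. With only the first 18 bases, which a shorter read would give, mmu-miR-466k was found in 17 genes, of which 13 were family hairpins and 12 lay inside Sfmbt2. For mmu-miR-466i-3p the number rose to 32 genes, for mmu-miR-467g to 7 and for mmu-miR-466q to 4.

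Among the 1623 listed mouse names with a sequence in the RefSeq table, of 1915 in all, 7 outside the family hold 8 bases in a row of alternating U and G or A and C. Of these, 6 had 0 counts in both libraries and 1 had a count, where 5.89% of all names outside the family had one, and 7 names are too few to set apart from that share. mmu-miR-574-5p, whose sequence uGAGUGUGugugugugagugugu is shown for its run of U and G, was found 3 times, each in eEVs, which is the limit itself, with an adjusted p of 0.0482 in Fisher's exact test. Its 3p arm had the same 0 and 3 counts. Among hairpins with a count, 22 had equal counts on their arms in both libraries, so these counts cannot be credited to the arm with the repeat. None of those hairpins belongs to the family.

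**Figure D5:**
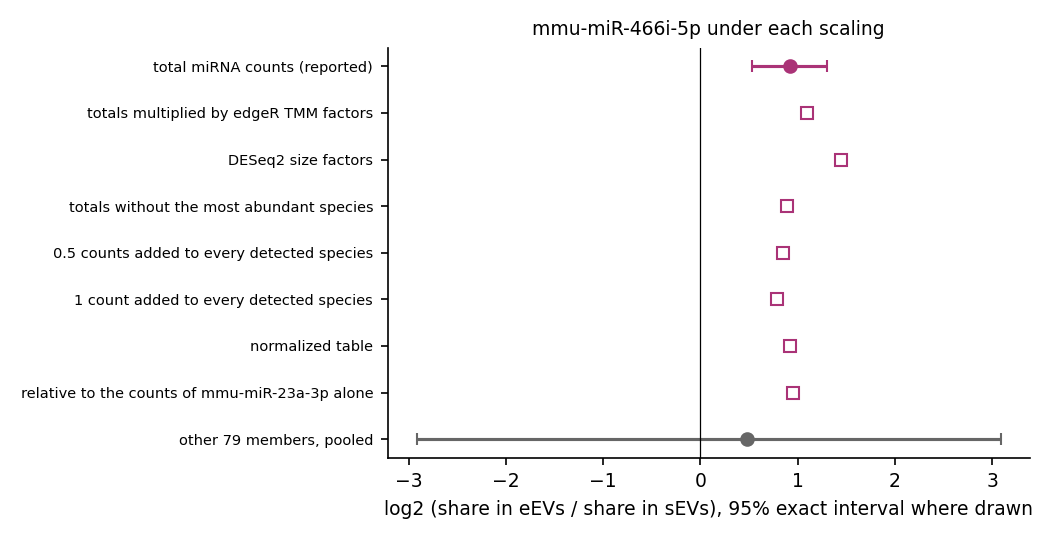
Log2 of the share in eEVs over that in sEVs for mmu-miR-466i-5p with total counts (filled point, exact 95% interval) and under other scalings (open squares), and for the other 79 members pooled. The values for mmu-miR-466i-5p lie between 0.79 and 1.44, all above 0, and the interval of the other members runs from -2.92 to 3.09.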

How the data were processed

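Small RNA libraries were made with the TruSeq kit from EV-rich fractions 1 to 3. The authors deposited raw counts of reads per mature miRNA and a second table that gives each species as a fraction of its library's summed miRNA counts. The aligner, the miRNA reference and filters are not given in the sources used here. All columns were used, and the normalized values differed from count over total by at most 4.85e-10. Shares were given Wilson intervals and fold changes exact intervals conditional on the summed count, at 95%. Fisher's exact test ran on all 117 detected species with Benjamini-Hochberg adjustment at 0.05, since edgeR's quasi-likelihood test could not be fitted with 1 library per group. A 2-fold call needed more than 3 counts in a library, with 3 counts put in place of fewer. No genome was used here, so sequence sharing was counted in GENCODE M21 transcripts, although a search of the genome had been planned. Every counted member was named, and an uncounted one where its mature sequence held, or shared bases 2 to 8 with, that of a counted member, which none of those with a sequence did. Outside this rule, the 5 uncounted members whose mature sequences the RefSeq table held were named to show the repeats, and mmu-miR-297a, mmu-miR-466a, mmu-miR-466f and the 3p arm of mmu-miR-467c to complete the account of loci and arms. Loci were assigned by hairpin name. The members, lists and rules were chosen with earlier results of these data known. Versions were Python 3.11.15, scipy 1.17.1, R 4.3.3, edgeR 4.0.16 and DESeq2 1.42.0.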

Additional observations from a re-analysis of the deposited data

How the results depend on the processing

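No paired analysis was possible because each group has 1 library, and for the same reason no library could be left out. Of 51 alternatives, 29 kept the value within its counting interval, or a count within 1.5 times. Some of these had to: the normalized values are count over total, and counting equal arms once removed no member. A reversal could be scored only for log2 fold changes, where 0 reversed. Members counted in sEVs fell from 4 to 2 at 2 or more and at 3 or more counts, to 1 at 5 or more, and to 2.21 at the eEV depth, and in eEVs from 3 to 1 at each of these minimums. Without mmu-miR-466i-5p the family's share was 0.175% in sEVs and 0.244% in eEVs, its log2 fold change 0.48, and the Sfmbt2 share of its sEV counts 60.0%, which is 3 of 5 counts. With mmu-miR-23a-3p out of the denominator the shares were 10.7% and 19.7%. DESeq2's size factors gave a family log2 fold change of 1.43. Members called fell from 1 to 0 when edgeR's exact test was run at a coefficient of variation of 0.2 or 0.4 between libraries. Calls over all detected species fell as well, from 23.1% by Fisher's exact test to 3.42% at 0.2 and 0.855% at 0.4. Members past 2-fold rose from 0 to 1 with DESeq2's size factors, with TMM factors or at 1.5-fold. With 1 count added and no minimum it was 2, mmu-miR-466q and mmu-miR-467g, which had 1 or 2 counts in all, and not mmu-miR-466i-5p, with a log2 fold change of 0.79. The share of all species past these cuts is not given for these settings, so the changes in number do not set members apart from other species. Over the 8 members with a mature sequence, all from outside Sfmbt2 and without mmu-miR-466i-5p, the median number of genes holding it rose from 1 to 5.5 with its first 18 bases. The scaling relative to mmu-miR-23a-3p, and the scalings of mmu-miR-466i-5p alone, were chosen after seeing the data. The depth of 820 counts in eEVs limits every statement on members other than mmu-miR-466i-5p.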
